A study of Mus musculus with 3 samples.

Results

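T, natural killer (NK) and innate lymphoid cells were looked for among single bone marrow cells of C57BL/6 mice, and 557 of 26415 cells met the rule that defines them here. Members were chosen by measured RNA counts, so the genes of the rule are no finding about them. The rule counts unique molecular identifiers (UMIs), tags that mark each captured RNA molecule once. A cell was kept when it held at least 500 UMIs, at least 300 detected genes and at most 10% of its UMIs from mitochondrial genes. A kept cell became a member when Cd3e, Cd3d, Cd3g and Klrd1 together gave at least 2 UMIs, or when it had at least 2 UMIs of Gata3 with at least 1 of Il7r. Cells with more than 1 UMI of Cd79a and Vpreb3, genes of B cells, or more than 2 UMIs of Mcpt8 and Prss34, genes of basophils and mast cells, were left out. The marrow had been enriched for cells that carry Kit, the stem cell factor receptor, and was profiled with version 2 of the 10x 3′ kit. The 3 groups were steady-state mice (unchallenged), mice given Escherichia coli on 1 occasion and labelled 24 h (challenged once), and mice given it on 2 occasions and labelled 48 h (rechallenged). Each group is 1 library, so no spread between animals can be measured, no test between groups was possible, and every interval below covers counting error only. The sources used here do not say whether a library pools animals or from which injection its hours count, and the time and the number of challenges cannot be told apart. The labels name the source as neutrophils although the enrichment was for Kit.

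Lymphocytes of these kinds share a need for signals through common cytokine receptors and differ in how they sense a target. T cells carry an antigen receptor that signals through the CD3 chains (Cd3e, Cd3d, Cd3g). NK cells have no such receptor and read surface ligands through germline-encoded receptors such as CD94 (Klrd1), NKp46 (Ncr1) and the Ly49 family (Klra genes). They kill with granule proteins, granzymes and perforin, and recruit other cells with chemokines such as those of Ccl5, Ccl4 and Xcl1. Group 2 innate lymphoid cells depend on GATA3 and the interleukin 7 receptor and lack an antigen receptor. Bone marrow is a site where NK cells and innate lymphoid precursors form, and mature T cells also reside there.

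The libraries held 9223, 8650 and 8542 kept cells in the order unchallenged, challenged once and rechallenged, an order used throughout. Kept cells had medians of 11196, 13477 and 10500.5 UMIs, and the members had 6839, 9114 and 4345. The members' UMIs summed to 828195, 1099945 and 2091856. Between 103 and 125 cell barcodes occurred in each pair of libraries, and 1, 1 and 8 members carried such a barcode. Scrublet, a program that finds pairs of cells captured together, marked 6, 4 and 18 members, which stayed in. Neutrophil granule RNA was found in most members: Camp, a granule peptide gene, gave a UMI in 100%, 85.5% and 75.7% of the members. The summed level of 14 neutrophil granule markers was 132349, 17551 and 29486 CPM (UMIs of a gene per 1000000 UMIs of the same cells) in the members and 203158, 60363 and 94087 CPM in all other kept cells. That level was highest in the unchallenged library in both.

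To see which cell types the label covers, members were sorted into 8 exclusive classes by fixed UMI minimums, which were chosen after the values had been seen. The classes use genes of the member rule along with others, so their sizes describe the members and do not test the label. The largest class, called the NK gate, had at least 1 UMI of Klrd1, at least 2 UMIs over 9 NK genes (Ncr1, Klrb1c, Klre1, Klra4, Klra7, Klra8, Gzma, Eomes and Il2rb) none of Cd3e or Trac, and fewer than 3 UMIs over the dendritic cell genes named below. It held 309 cells, or 55.5% of the members. A further 42 cells had NK genes together with Cd3e or Trac, 31 outside the NK gate had Cd3e or Cd3g, and 26 had Gata3 and Il7r. These 4 classes, 408 cells, are called the lymphocyte classes. Of the remaining 149, 86 had at least 3 UMIs over the dendritic cell genes Flt3, Siglech, H2-Aa, H2-Ab1 and H2-Eb1, and 8 had both these and NK genes. In 31 cells Cd3d was the sole one of Cd3e, Cd3d, Cd3g, Klrd1 and Gata3 with a UMI, and 24 were left over.

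**Figure D1:**
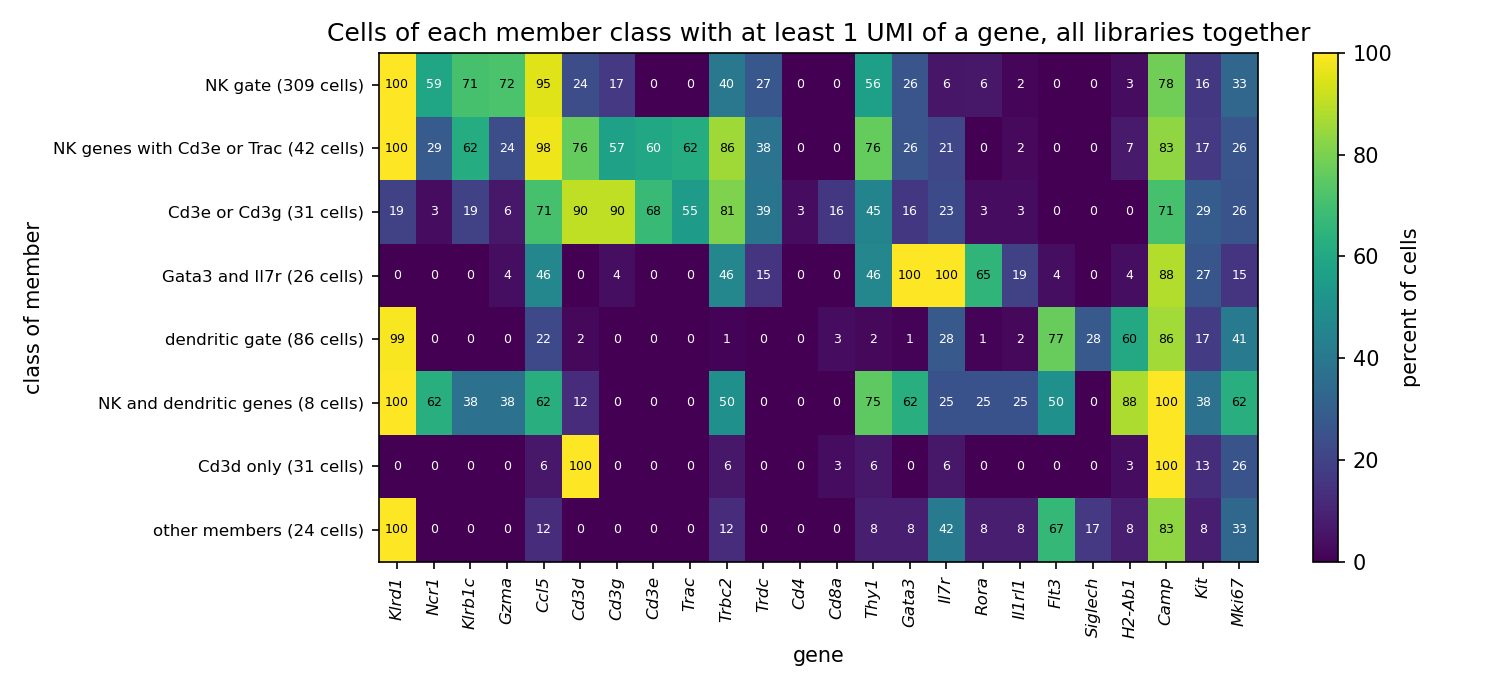
Percent of the cells of each member class (rows, with their number) that had at least 1 UMI of a gene (columns), all 3 libraries together. The dendritic gate had Klrd1, which admitted nearly all of its cells, in 98.8% of them and Ncr1, Klrb1c and Gzma in none. The 31 cells admitted by Cd3d all had Camp.

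Members made up 93, 110 and 354 cells, or 1.01% (95% exact Clopper-Pearson interval 0.815 to 1.23), 1.27% (1.05 to 1.53) and 4.14% (3.73 to 4.59) of kept cells. The NK gate gave most of this difference, with 22, 43 and 244 cells. Its share was 0.239% (0.150 to 0.361) in the unchallenged library, 0.497% (0.360 to 0.669) after 1 challenge and 2.86% (2.51 to 3.23) after 2. The interval of the rechallenged library lay above both others, and those of the first 2 libraries met at their edges. Cells were also thinned to 1000 UMIs each, with 183, 192 and 225 shallower kept cells left out. At this equal depth the NK share was 0.0442% (0.0121 to 0.113), 0.177% (0.0993 to 0.292) and 0.709% (0.540 to 0.914), in the same order. The class with NK genes and Cd3e or Trac and the class with Cd3e or Cd3g together held 14, 22 and 37 cells, or 0.152% (0.0830 to 0.255), 0.254% (0.159 to 0.385) and 0.433% (0.305 to 0.597). The interval of the rechallenged library lay above that of the unchallenged one, and the challenged once interval overlapped both. Taken singly, the intervals of each class overlapped between all 3 libraries. Cells with Gata3 and Il7r went the other way, 13, 9 and 4, also with overlapping intervals. The dendritic gate held 14, 28 and 44 cells, 0.152% (0.0830 to 0.255), 0.324% (0.215 to 0.467) and 0.515% (0.375 to 0.691). Cd3d alone admitted 21, 2 and 8 cells, which were most frequent in the library with the most granule RNA. Members of the 4 lymphocyte classes alone made up 0.531%, 0.855% and 3.34% of kept cells. The libraries also differed in granule cells (at least 50 UMIs over Camp, Ngp, Ltf and S100a9), which numbered 8322, 2316 and 3034. With these left out of members and kept cells, the members made up 1.44%, 1.67% and 6.10% and the NK gate 0.666% (0.245 to 1.44), 0.647% (0.465 to 0.877) and 4.21% (3.70 to 4.78). The unchallenged value rests on 6 NK cells of 901, so the first 2 libraries could not be ordered on this denominator, while the rechallenged library stood above both. The granule mark took out most of the unchallenged NK gate, leaving 6 of 22 cells, against 41 of 43 and 232 of 244 in the others. It thus acts unlike between the libraries.

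**Figure D2:**
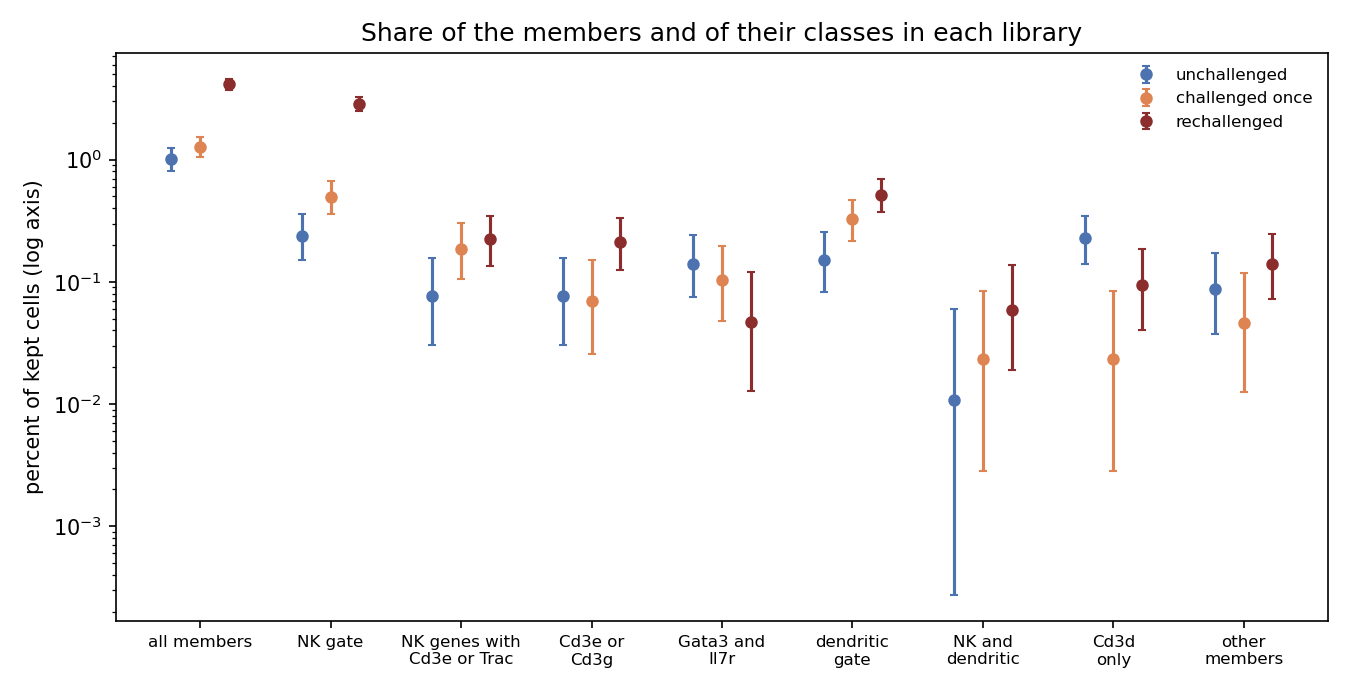
Share of kept cells (percent, log axis) held by all members and by each of the 8 classes in the 3 libraries, with exact 95% binomial intervals, 1 library a group. The NK gate runs from 0.239% to 2.86%, while the class with Gata3 and Il7r runs from 0.141% to 0.0468% with overlapping intervals.

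Cells just below the threshold, with 1 UMI over Cd3e, Cd3d, Cd3g and Klrd1, numbered 208, 155 and 284, and 3, 5 and 47 of them carried NK markers. Just inside it, with 2 UMIs, were 35, 19 and 105 cells, of which 3, 2 and 63 carried NK markers. Among kept cells with at least 2 UMIs over these 4 genes, the exclusion of B cell and basophil genes removed 6, 16 and 3. Cells that it removed from the Gata3 with Il7r arm alone were not counted. As a background, granule cells outside the members had a Klrd1 UMI in 1.16%, 0.346% and 0.995% of cells. They had a Cd3d UMI in 1.75%, 1.60% and 1.96%, at median depths of 12150, 11848.5 and 9691 UMIs. Lymphocytes can also meet the granule mark, as most of the unchallenged NK gate did, so these cells need not all lack both genes. This background is cut by the rule, since granule cells with 2 or more such UMIs mostly became members. It leaves out the 80, 4 and 18 granule cells among the members.

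UMIs of the members were summed in each library, and each gene with 30 or more UMIs in the 2 libraries of a comparison was given a log2 ratio of CPM, with 50 CPM added on either side. A gene was counted as at least 2-fold higher or lower when this ratio, with the added 50 CPM, reached 2-fold. The added 50 CPM shrinks ratios, most at low levels, so a gene whose CPM differ by more than 2-fold can go uncounted. In a simulation of the challenged once and unchallenged members, 10 of 100 genes set 2-fold apart were counted. Of 100 set 4-fold apart, 97 were. In the members challenged once, 10 of 5702 genes (0.175%) were at least 2-fold higher than in the unchallenged members and 53 (0.929%) were lower. After 2 challenges, 33 of 6849 (0.482%) were higher and 54 (0.788%) lower than unchallenged, and 27 of 7170 (0.377%) were higher and 19 (0.265%) lower than after 1. Scaling by the median of gene ratios shifted the log2 ratios of the members by -0.13, 0.13 and 0.23 in these 3 comparisons and turned the counts into 6 higher and 55 lower, 49 and 39, and 41 and 10. The granule and neutrophil genes Wfdc21, Ly6g, Ifitm6, Hp, Pglyrp1, Fcnb and Anxa1 led the lower genes after 1 challenge, with log2 ratios of -2.37 to -1.68, and in the other kept cells they were lower too, by log2 ratios of -1.71 to -0.67.

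Class II antigen presentation genes led the higher genes after 1 challenge. H2-Eb1, a class II chain, stood at 182, 695 and 392 CPM, and Cd74, the invariant chain that accompanies class II molecules, at 881, 2456 and 911 CPM, with the challenged once library above both others. In the other kept cells the Cd74 ratio was 0.14 against 1.43 in the members. The dendritic gate held 15.1%, 25.5% and 12.4% of the members, highest in the challenged once library as these levels were, but lowest in the rechallenged one, and its part in them was not tested. Within lymphocyte classes alone Cd74 had a log2 ratio of 0.025 between the challenged libraries, where all members gave -1.38. By their rule these classes hold no cell with at least 3 UMIs over Flt3, Siglech, H2-Aa, H2-Ab1 and H2-Eb1. The value therefore follows in part from the rule and does not test the part of the dendritic gate.

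NK genes also differed between libraries over all members. Gzma, which encodes granzyme A, stood at 397 CPM (355 to 443), 575 (532 to 622) and 1377 (1327 to 1428), and Ccl5 at 1533, 2338 and 3518 CPM. Il2rb, a chain of the receptor for interleukins 2 and 15, stood at 157, 338 and 477 CPM. Klra8, the Ly49H receptor gene, stood at 20.5, 125 and 202 CPM. All 4 were higher in each library than in the one before, without overlap of their counting intervals. The share of members in the NK gate had the same order, 23.7%, 39.1% and 68.9%. Of the list of NK receptors and regulators, 1 of 21 measured genes was at least 2-fold higher after 1 challenge and 4 of 23 after 2, with median log2 ratios of 0.46 and 0.62 against 0.06 and -0.05 over all genes. That list holds Klrd1 of the member rule. Cytotoxic effectors and chemokines gave medians of 0.61 and 0.63, with 1 of 10 and 3 of 12 counted. Group 2 innate lymphoid genes, a list that holds Gata3 and Il7r of the member rule, had medians of -0.38 and -0.65. The intervals of these medians over the list's genes, -0.78 to 0.67 and -1.01 to 0.15, include 0. The summed level of the list was 1279, 1334 and 877 CPM, lower in the rechallenged library only. Rora, a transcription factor gene of these cells, stood at 84.5, 38.2 and 16.7 CPM, and Icos, a costimulatory receptor gene, at 42.3, 7.27 and 8.60. Of the 9 measured genes of that list, 2 were counted as at least 2-fold lower after 2 challenges, Rora and Lmo4. Icos was not counted, nor was Il7r, at 89.4 CPM unchallenged and 26.3 rechallenged. With 50 CPM added, their ratios stayed under 2-fold. Lmo4 had a ratio of -1.37 in the members and -0.32 in the other kept cells. Heat shock chaperones had a median of -0.87 between the challenged libraries, with 3 of 9 genes at least 2-fold lower, against -0.79 in the other kept cells. The S phase list had a median of -0.40 there, with 25 of 26 ratios below 0 and 0 of 26 at least 2-fold apart, against -0.14 in the other kept cells. Since the make-up of the members differs between libraries, the classes are described one by one below.

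Genes that had no part in choosing the cells were also seen in the NK gate. Ccl5 was seen in 95.1% of its 309 cells, Thy1, a surface glycoprotein of lymphocytes, in 56.3%, and Mki67, a proliferation gene, in 33.0%. Trbc2, a T cell receptor constant region, was seen in 40.1% and Trdc in 27.2%. Of the genes of the member rule, Cd3d was seen in 23.6% and Cd3g in 16.5%, and Cd3e and Trac were at 0 by the gate's construction. In granule cells outside the members Ccl5 gave a UMI in 1.89% to 5.94% of cells and Trbc2 in 0.166% to 0.752%. Cd8a and Cd8b1 gave no UMI in these 309 cells and Cd4 gave 1. Siglech, of plasmacytoid dendritic cells, was at 0, and Flt3 was seen in 0.324%. Both are among the dendritic cell genes whose UMIs the gate's rule limits. Their low values therefore follow in part from the rule and do not test the type of these cells. The 8 sub-clusters of the members were found without the listed interferon, immediate early, heat shock and cell cycle genes. They placed the gate's unchallenged cells mainly in NK-like cluster 8 (12 of 22) and its rechallenged cells mainly in NK-like cluster 1 (150 of 244). NK-like cluster 2 held 5, 18 and 65 of the gate's cells and was led by Hist1h2ap, a replication histone. Mki67 was seen in 80% of the cells of cluster 2, against 8.18% in cluster 1 and 6.06% in cluster 8. The part of the cell cycle in this split was not tested. Cluster 1 came to 98.7% from the rechallenged library and may be that library rather than a type.

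Start regions were sought for Klrd1, Ncr1 and Gzma, because the NK gate rests on their RNA, and for Ccl5, which had no part in the gate. Of these genes, 2 had an entry in the RefSeq promoter table (GRCm38.p6). Ncr1 lies on chromosome 7 from 4337724 to 4345164 on the plus strand and Gzma on chromosome 13 from 113093825 to 113100981 on the minus strand, both protein coding in GENCODE M21 (GRCm38). The table gives RefSeq starts at 4337715 for Ncr1 and 113100981 for Gzma, and the Ncr1 start differs from the GENCODE one. The 250 bases before each RefSeq start follow, with 2 motifs in capitals, the RUNX core TGTGGT and the T-box core GTGTGA, searched on both strands. RUNX and T-box factors, among them the products of Eomes and Tbx21, are known regulators of NK cells.
Ncr1, chr7:4337465-4337714, plus strand: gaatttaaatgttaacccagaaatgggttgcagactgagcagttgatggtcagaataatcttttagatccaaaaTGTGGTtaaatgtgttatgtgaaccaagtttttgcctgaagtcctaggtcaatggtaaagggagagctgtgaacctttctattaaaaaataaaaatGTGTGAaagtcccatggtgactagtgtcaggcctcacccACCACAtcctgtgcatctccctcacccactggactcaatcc
Gzma, chr13:113100982-113101231, minus strand: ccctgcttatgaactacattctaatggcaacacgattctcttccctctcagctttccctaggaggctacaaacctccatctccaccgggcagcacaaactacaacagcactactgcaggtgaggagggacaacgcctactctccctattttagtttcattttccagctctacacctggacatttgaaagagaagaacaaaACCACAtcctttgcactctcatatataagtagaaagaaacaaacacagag
Ncr1 held the RUNX core 176 to 171 bases before its RefSeq start and, on the opposite strand, 41 to 36 bases before it, and the T-box core 80 to 75 bases before it. Gzma held the RUNX core on the opposite strand 50 to 45 bases before its RefSeq start. Of 32851 promoters of this length, 14.0% held the RUNX core and 12.3% the T-box core, and a match is a description of letters, not a binding site.

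Receptors of the NK gate did not share one order across the libraries. Ncr1, Klra4, Klra7, Klra8, Il2rb, Eomes and Gzma were among the genes that chose these cells in every library, so their levels are a description. Klrd1, which chose the cells, stood at 706, 705 and 753 CPM. Ncr1 stood at 329 CPM (252 to 422) and 313 (264 to 369) in the first 2 libraries and at 181 (159 to 206) after 2 challenges, below both. It was detected in 81.8%, 90.7% and 51.2% of the cells, at median depths of 5301.5, 9850 and 4166 UMIs. Klrk1, the activating receptor NKG2D, was also lowest after 2 challenges, at 520, 512 and 375 CPM.

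The Ly49 genes split. Klra8 was lowest in the unchallenged cells, at 90.2 CPM (52.5 to 144), 221 (180 to 269) and 314 (284 to 346), a fold of 3.48 (2.15 to 6.03) between the unchallenged cells and those rechallenged. Klra4, the Ly49D gene, was highest there, at 716 CPM (600 to 848), 313 (264 to 369) and 444 (408 to 482). Klra3 stood at 79.6, 101 and 79.8 CPM, with overlapping intervals. Ly49 genes resemble each other: 52.2% of the 31-base words at the transcript end of Klra8 occur in other genes, 9.26% of those of Klra4 and 61.1% of those of Klra3, so reads of Klra8 and Klra3 may be shared with relatives. Klra8 and Klra4 lie on chromosome 6, from 130115226 to 130129898 and from 130043731 to 130067271, both on the minus strand.

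Il2rb stood at 467, 534 and 682 CPM, 1.46-fold higher (1.17 to 1.84) after 2 challenges than in the unchallenged cells. Eomes, a T-box factor of NK cells, stood at 212, 120 and 152 CPM, and the interval of its fold included 1 between the unchallenged cells and those rechallenged (0.507 to 1.03). Over the whole list of 23 NK receptors and regulators the median log2 ratio was 0.00, 0.01 and 0.22 for once over unchallenged, rechallenged over unchallenged and rechallenged over challenged once. The counts were 0 higher and 1 lower (Klra4) of 19, then 1 higher (Klra8) of 23, then 1 higher (Txk) of 23. These read against 12 of 2495 genes (0.481%) higher and 26 (1.04%) lower in the gate after 1 challenge, 15 of 4346 (0.345%) higher and 48 (1.1%) lower after 2, and 25 of 4959 (0.504%) higher and 43 (0.867%) lower between the challenged libraries. Scaling by the median of gene ratios shifted the log2 ratios of the gate by 0.01, 0.21 and 0.18 and gave 13 higher and 25 lower, 26 and 24, and 36 and 19.

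Gzma was lowest after 1 challenge within the gate, at 1713 CPM (1532 to 1911), 1211 (1112 to 1316) and 2150 (2071 to 2231). Within the gate the rechallenged cells stood 1.25-fold (1.12 to 1.41) above the unchallenged ones, against 3.47-fold (3.09 to 3.90) over all members. Ccl5 had the same order, at 4429, 3523 and 4762 CPM. Gzmb, the gene of granzyme B, was seen in 2, 38 and 24 UMIs, or 10.6 CPM (1.28 to 38.3), 83.2 (58.9 to 114) and 18.6 (11.9 to 27.7), with the challenged once cells above both others. Tnfrsf9, an inducible costimulatory receptor, had the same order at 15.9, 89.8 and 30.2 CPM. Its unchallenged level is that of 3 UMIs. Gzmb was detected in 9.09%, 41.9% and 6.56% of the cells and Tnfrsf9 in 13.6%, 39.5% and 11.5%.

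Chemokines did not follow one order. Ccl4 was higher after 2 challenges, at 143, 147 and 358 CPM, 2.50-fold (1.69 to 3.83) above the unchallenged cells, and in the other kept cells it stood at 15.8, 16.0 and 61.6 CPM, also highest there. Xcl1 was highest after 1 challenge, at 408, 569 and 355 CPM. Ifng, interferon gamma, was seen in 13, 6 and 58 UMIs, at 69.0, 13.1 and 44.9 CPM. Prf1, perforin, stood at 58.4, 107 and 95.3 CPM with overlapping intervals. The median of the effector list in the gate was 0.07, 0.18 and 0.09 in the 3 comparisons.

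**Figure D3:**
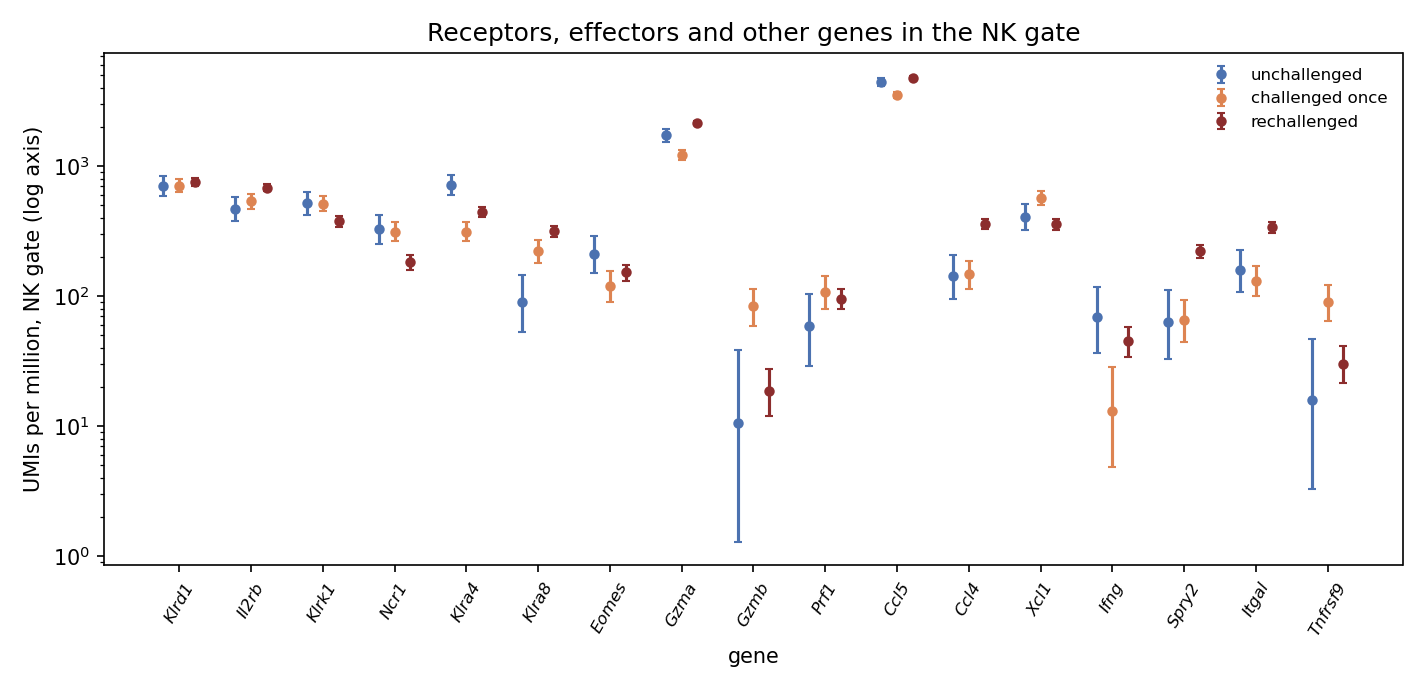
Levels of 17 genes in the NK gate (CPM of the gate, log axis) in the 3 libraries of 22, 43 and 244 cells, with exact 95% Poisson intervals. Gzmb and Tnfrsf9 stand highest after 1 challenge, Spry2, Itgal and Ccl4 highest after 2, and Klra4 highest in the unchallenged cells.

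Some genes outside the receptor and effector groups differed in the NK gate too. Spry2, a feedback inhibitor of receptor tyrosine kinase signalling, stood at 63.7 CPM (32.9 to 111), 65.7 (44.3 to 93.8) and 221 (196 to 248), with a log2 ratio to the unchallenged cells of 1.25 in the gate and 0.22 in the other kept cells. Itgal, an adhesion integrin chain, stood at 159, 131 and 337 CPM, and in the other kept cells at 21.3, 17.5 and 43.0 CPM, also highest after 2 challenges. Bhlhe40, a transcription factor gene, was 7.50-fold higher (3.11 to 23.6) after 2 challenges than after 1, at 82.1 against 10.9 CPM, and stood at 37.1 in the unchallenged cells. In the gate 1 UMI was worth 5.30 CPM unchallenged and 2.19 CPM challenged once, so the Bhlhe40 levels there rest on few UMIs. In the other kept cells Bhlhe40 stood at 4.30, 2.88 and 4.74 CPM. Txk, a kinase of lymphocyte signalling, was lowest after 1 challenge, at 276, 140 and 349 CPM.

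Several of the largest ratios were shared with all other cells. Hist1h2ap, a replication histone, had a log2 ratio of 2.94 in the gate between the challenged libraries and 2.88 in the other kept cells, S100a6 1.40 and 1.69, and Eif5a -1.67 and -1.23. Of the 31-base words at the transcript end of Hist1h2ap, 100% occur in other genes. Neutrophil genes differed in the gate as well: Ctsg stood at 663, 83.2 and 194 CPM and Ms4a3 at 398, 43.8 and 168. The log2 ratio of Ms4a3 between the rechallenged and the challenged once gate, 1.22, was -0.049 without cells marked by Scrublet and -0.036 over the NK-like clusters. The 14 neutrophil granule markers summed to 42002, 14281 and 26758 CPM in the gate. Erythroid markers summed to 361, 896 and 2736 CPM in the gate and to 2133, 1602 and 1023 in the other kept cells, and Pf4, a platelet gene at 108 CPM after 2 challenges, came from 1.23% of the gate's cells. The part of these transcripts in the gate's ratios was not tested.

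Heat shock chaperones, which help proteins fold, had the lowest list median in the gate between the challenged libraries. The median log2 ratio was 0.25 after 1 challenge, -0.69 after 2, and -1.09 between the challenged libraries, where 5 of 9 genes passed the 2-fold mark downward and 0 of 9 had a ratio above 0. Hspa8, the constitutive HSP70, stood at 2069, 2761 and 1265 CPM, Hsp90aa1 at 668, 819 and 307, and Hspd1, a mitochondrial chaperonin, at 255, 219 and 76.7. In the other kept cells the medians of the same genes were 0.74, -0.16 and -0.79, so the rechallenged library was also low there. Of Hspa8, 78.3% of end words occur in other genes, and of Hsp90aa1 60.2%.

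Interferon response genes were higher in the gate after 1 challenge than after 2. Ifi27l2a stood at 31.8 CPM (11.7 to 69.3), 160 (125 to 201) and 33.3 (24.1 to 44.9), and Bst2, an antiviral membrane protein, at 69.0, 158 and 44.1. Irf7, a transcription factor of the response, was seen in 4, 26 and 16 UMIs. The list had medians of 0.35, -0.14 and -0.31, with 1 of 15 higher, 0 of 16 counted, and 2 of 21 lower, against 0.33, -0.17 and -0.47 in the other kept cells. The signs of these medians were the same outside the gate.

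DNA replication genes were higher after 1 challenge. Of the S phase list, 19 of 20 measured genes had a ratio above 0 to the unchallenged cells, 1 of them at least 2-fold, with a median of 0.46, and 0 of 24 had one above 0 after 2 challenges against 1, with a median of -0.52. The summed level of the 26 genes was 1756 CPM (1572 to 1956), 2862 (2709 to 3021) and 1570 (1502 to 1640). Gins2 was seen in 2, 34 and 18 UMIs and Ung in 0, 29 and 5. The G2 and M phase list had medians of -0.31, -0.38 and -0.01, with summed levels of 6588, 4811 and 4262 CPM, highest in the unchallenged cells. In the other kept cells the S phase medians were 0.16, -0.11 and -0.15 and those of G2 and M phase -0.08, -0.27 and -0.16.

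**Figure D4:**
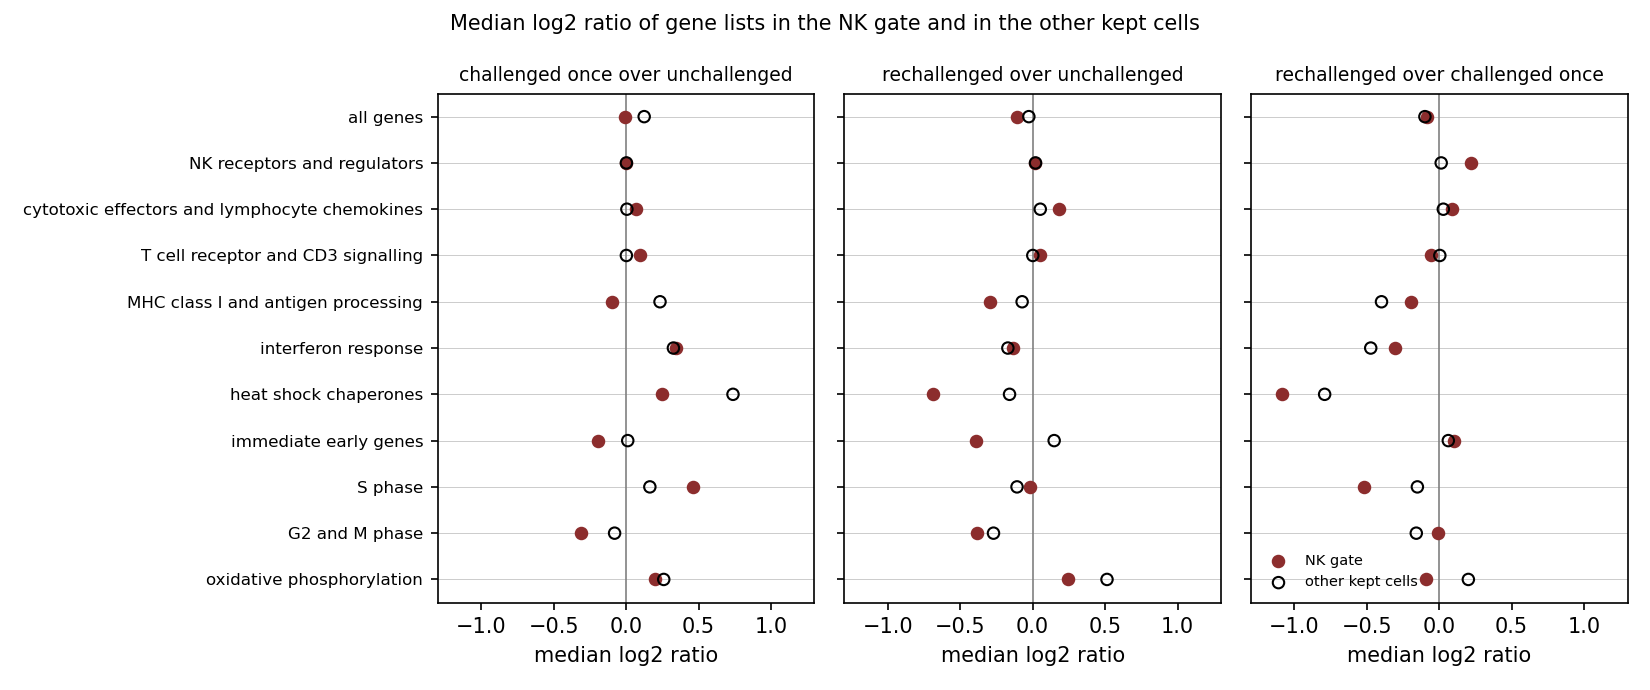
Median log2 ratio (50 CPM added) of 10 gene lists and of all measured genes in the NK gate (filled) and in the other kept cells (open) for the 3 pairs of libraries, over the same genes. The interferon medians lie close together in the pairs with the unchallenged library, while the S phase median of the gate is 0.46 against 0.16 in the other cells after 1 challenge.

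Cells with T cell genes outside the NK gate were few, and as a set they held RNA of alpha, gamma and delta chain constant regions. The class with NK genes and Cd3e or Trac and the class with Cd3e or Cd3g, 73 cells together, leave out 51 cells of the NK gate that had a UMI of Cd3g. They held 41, 40 and 30 UMIs of Cd3e, or 402, 218 and 191 CPM. Trac, the constant region of the alpha chain, stood at 314, 229 and 198 CPM and was found in 42.9%, 72.7% and 56.8% of the cells. Trdc, of the delta chain, stood at 442, 262 and 255 CPM and was found in 42.9%, 27.3% and 43.2%. Cd3e or Trac placed cells in the class with NK genes, so the Trac shares follow in part from the rule. Trdc was also seen in 27.2% of the NK gate, so it does not settle the receptor type of a cell. Tcrg-C1 and Tcrg-C2, of the gamma chain, were found in 13.6% to 21.4% and 16.2% to 42.9% of the cells. Of the 31-base end words, 34.4% of those of Tcrg-C1 and 33.0% of those of Tcrg-C2 occur in other genes, so their reads may be shared with relatives, against 0% of those of Trbc2.

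Co-receptors were seen in few of these cells. In the 31 cells of the class with Cd3e or Cd3g, Cd8a was found in 16.1%, Cd8b1 in 12.9% and Cd4 in 3.23%, and none of the 3 gave a UMI in the 42 with NK genes. Over both classes Cd4 gave 1, 0 and 0 UMIs, Cd8a 0, 5 and 5, and Cd8b1 0, 1 and 4, while Ccr7, a lymph node homing receptor, gave 0, 1 and 1. Ikzf2, the transcription factor Helios, was seen in 78.6%, 63.6% and 62.2%. Ccl5 stood at 4004, 4380 and 7077 CPM, highest after 2 challenges, and Cd160, an NK and T cell receptor, at 255, 240 and 70.2, lowest there. Of the 73 cells, 42 also met the NK criteria, and Klrd1 was found in 19.4% of the other 31. Scrublet marked 1 of the 42.

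Cells with Gata3 and Il7r resembled innate lymphoid cells in part of their markers. The arm of the rule that admits them took 13, 12 and 4 cells, and 26 formed the class, with Rora in 65.4% of them. Il1rl1, the interleukin 33 receptor, was found in 19.2% and Cd3e, Trac and Klrd1 in none. Over the arm, Rora stood at 493 CPM (379 to 631), 319 (219 to 448) and 1040 (537 to 1817), and Icos at 250 (171 to 354), 29.0 (5.97 to 84.7) and 86.7 (2.19 to 483). Zbtb16, of innate lymphoid precursors, gave 20, 9 and 1 UMIs, and Tcf7, also active in precursors, gave 43, 23 and 2. Il5 and Il13, the cytokines of group 2 cells, gave no UMI in any member, and Klrg1, a marker of their mature form, gave none in this arm. Trbc2 was seen in 61.5%, 33.3% and 0% of the cells. The rechallenged library holds 11536 UMIs of this arm, so 1 UMI there is worth 86.7 CPM and its intervals are wide. Cpa3, a protease gene of mast cells and progenitors, was also present, at 180, 550 and 86.7 CPM, and Camp at 11486, 164 and 10229 CPM.

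The dendritic gate is named for the genes of its rule. In it Klrd1 stood at 180, 384 and 328 CPM and was found in 98.8% of 86 cells, while Thy1 was found in 2.33% and Trbc2 in 1.16%. Cd3d was found in 2.33% and Cd3e and Cd3g in none, so nearly all of these cells became members through Klrd1. Its share there follows from the rule and is no finding. Among granule cells outside the members Klrd1 gave a UMI in at most 1.16% of cells, a background that the rule has cut and that does not test the gate's share. H2-Aa, a class II chain, was found in 14.3%, 82.1% and 56.8% of the gate's cells and Flt3, the receptor for a dendritic growth factor, in 100%, 67.9% and 75% of them. Siglech stood at 197, 36.2 and 85.2 CPM. Of its cells, 2, 20 and 22 lay in the conventional dendritic-like cluster 5, 11, 8 and 22 in the unnamed cluster 4, led by Dntt, Cox6a2 and Ly6d, and 1 unchallenged cell in cluster 7. Cox6a2 and Ly6d are on the plasmacytoid dendritic marker list used here, and Dntt is on the stem and progenitor list. Cluster 4 had 2 markers of each list among its leading genes and was left unnamed for this tie. Siglech and Flt3, genes of the gate, were found in 35.4% and 81.5% of its 65 cells. These markers do not settle the type of the 41 gate cells in cluster 4. The part of this mix in the gate's class II levels was not tested.

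Members admitted by Cd3d alone had little of the other T cell genes examined. Among these 31 cells Cd3e, Cd3g, Trac and Trdc were at 0, Thy1, Trbc2, Il7r and Cd8b1 were each found in 6.45%, and Camp stood at 47601 CPM. In granule cells outside the members Cd3d was found in 1.60% to 1.96% of cells and Cd3e in at most 0.0243%, a background that leaves out granule cells that met the rule. The genes examined do not bear out the label T cell for these cells, which are called here by their rule.

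Compared with the other kept cells, the members stood apart by genes that were not in their rule, given as a description since the rule chose them by related genes. Averaged over libraries, Ccl5 stood at 2463 CPM in the members and 20.7 in the others, and Gzma at 783 and 2.33. AW112010, a transcript induced in lymphocytes, stood at 1176 and 46.3. Cd7, a surface protein of T and NK cells, stood at 442 and 3.54, and Ms4a4b at 340 and 3.11. The leading genes were not those of lymphocytes alone. The class II antigen presentation genes Cd74 and H2-Aa stood at 1416 and 101 CPM and at 584 and 36.8. H2-Ab1 stood at 532 and 47.0 CPM, and H2-Eb1 at 423 and 25.7. These genes were found in 21.2%, 12.4%, 13.6% and 12.0% of the members in that order, against 71.5% for Ccl5. Id2, the inhibitor of E proteins on which innate lymphocytes depend, stood at 679 and 81.6 CPM and was found in 79.4% of the members. Kit, by which the marrow was enriched, stood at 26.6, 27.3 and 32.5 CPM in the members and 33.3, 40.7 and 44.5 in the other kept cells, and it was detected in 16.2% of the NK gate.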

How the data were processed

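Per the labels' protocols, libraries were made with the 10x 3′ kit, and Cell Ranger 3.0.0 with build mm10 is listed per the submitters' processing notes. The annotation is not given in the sources used here. The authors deposited 1 table of raw UMI counts per library, 31053 genes by cell barcodes. Members and lists were chosen with earlier results of these data known. UMIs were summed over cells of a class and library (python 3.11.15, numpy 2.4.6, scipy 1.17.1). Levels carry exact Poisson intervals, shares exact Clopper-Pearson intervals, at 95%. Doublets were called with Scrublet in scanpy 1.11.5 at an expected rate of 6%. Members were clustered with Leiden (1500 variable genes, 15 components, 15 neighbours, resolution 1). Scripts were tested on simulated data. Genes were named by a rule: the 8 largest higher and lower ratios per pair over members, 5 per arm of at least 30 cells, up to 4 per list, always-named markers and 15 genes over other cells. The 8 per pair of the NK gate were added, and some further genes were chosen after their values were seen. With 1 library a group, no test was run.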

Additional observations from a re-analysis of the deposited data

How the results depend on the processing

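No paired analysis was possible because each group is 1 library and no replicate numbers are shared. Shares below are in the order unchallenged, challenged once and rechallenged, and alternatives for the NK gate, lymphocyte classes and NK-like clusters were chosen after seeing the data. The member share was 3.26%, 3.06% and 7.47% with a minimum of 1 UMI over Cd3e, Cd3d, Cd3g and Klrd1, 0.177%, 0.331% and 1.12% after thinning to 1000 UMIs, 1.44%, 1.67% and 6.10% without granule cells, and 0.531%, 0.855% and 3.34% for lymphocyte classes. With a minimum of 3 UMIs it was 0.629% unchallenged and 2.92% rechallenged. The NK share was 0.0442%, 0.177% and 0.709% after thinning. Without granule cells it was 0.666% unchallenged and 4.21% rechallenged, and in the rechallenged library it was 2.14% at 3 UMIs and 3.35% at 1 UMI. The Cd3 or Klrd1 arm held 100% of thinned challenged once members. The rechallenged library had the highest share of members and of NK cells under each of these settings where all 3 libraries are given.

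Counts of genes at least 2-fold apart depended on most settings. For members challenged once over unchallenged (10 higher, 53 lower), they were 59 and 120 with 10 CPM added, 6 and 30 with 100 CPM, 16 and 80 with totals without granule, ribosomal and mitochondrial genes, 18 and 28 thinned, and 5 and 32 in lymphocyte classes. The higher count was 6 under scaling by the median of gene ratios and 33 in the Gata3 arm. For rechallenged over unchallenged (33 and 54) they were 148 and 227 with 10 CPM and 17 and 25 with 100 CPM, and the higher count was 73 with the reduced totals and 73 thinned. For rechallenged over challenged once (27 and 19) they were 84 and 205 with 10 CPM, 41 and 10 by median ratios, and 41 and 66 thinned. The higher count was 54 with reduced totals, and the lower count was 10 with 100 CPM, 41 by mean per-cell CPM, 30 at 3 UMIs and 44 in lymphocyte classes.

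In the NK gate, challenged once over unchallenged (12 and 26) gave 73 and 52 with 10 CPM, a higher count of 1 with 100 CPM, 37 with reduced totals, 22 by per-cell CPM and 24 in NK-like clusters, and a lower count of 8 thinned. Rechallenged over unchallenged (15 and 48) gave 154 and 272 with 10 CPM, 26 and 24 by median ratios, a lower count of 17 with 100 CPM, and higher counts of 74 with reduced totals, 23 by per-cell CPM and 58 thinned. Rechallenged over challenged once (25 and 43) gave 119 and 297 with 10 CPM, 13 and 11 with 100 CPM, 43 and 76 thinned, a higher count of 61 with reduced totals and a lower count of 19 by median ratios. Of 1032 list medians recomputed, 946 stayed within the interval of the main median over its genes, 86 left it, and 0 reversed. Among 903 ratios of leading genes, 583 stayed within their counting interval, 317 left it and 3 reversed. The 3 are ratios of rechallenged over challenged once. Cd74 over members was 0.025 in lymphocyte classes, which by rule leave out the cells of the dendritic gate. Ms4a3 in the NK gate was -0.049 without Scrublet calls and -0.036 in NK-like clusters. The cause was not tested. The 4 rechallenged cells of the Gata3 arm were too few for its gene counts.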

Other observations

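Immediate early and antigen presentation genes of the NK gate have not been described above. The immediate early list had median log2 ratios of -0.19 for challenged once over unchallenged, -0.39 for rechallenged over unchallenged and 0.10 between the challenged libraries. Nr4a2, a nuclear receptor gene of that list, stood at 26.5, 26.3 and 94.5 CPM, highest after rechallenge. MHC class I genes, whose products NK cells also read on other cells, had medians of -0.10, -0.30 and -0.19, against 0.23, -0.07 and -0.40 in the other kept cells, with summed levels of 9161, 9017 and 6849 CPM in the gate.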
